A study of Arabidopsis thaliana with 4 samples.

Results

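RALF peptide genes were followed on 4 Affymetrix arrays of whole Arabidopsis seedlings, through 6 probe sets out of 22746 tested. The 5 named members are RALFL22, RALFL24, RALFL31, RALFL33 and RALFL34, taken because the platform's probe table gives those symbols, and each symbol had a single probe set. The other member is a probe set that this table leaves unnamed. It is expected to measure the AtRALF1 locus (AT1G02900), the gene overexpressed in the study, and is called the putative AtRALF1 probe set. No table used here pairs it with that locus. The transgenic samples were 2 arrays of 35S:AtRALF1-1 seedlings, in which AtRALF1 is driven by the strong, nearly ubiquitous cauliflower mosaic virus 35S promoter, each made from RNA of a pair of lines (35S:AtRALF1-1-I and 35S:AtRALF1-1-II) mixed in equal parts. The 2 control arrays held RNA of wild-type seedlings and of seedlings with the empty pART27 vector, again mixed. All seedlings were 1 week old and had been kept in the cold for 48 h, then grown on vertical plates at 24 °C with 16 h of light. Because lines and genotypes were mixed before hybridization, no value can be assigned to a single line. The labels number a first and a second repeat in each group without saying whether these were separate plantings, so the spread between them may be technical.

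RALF peptides are small, cysteine-rich signals that are cut from a secreted precursor and act outside the cell. They raise the pH of the apoplast, trigger a calcium signal in the cytoplasm and restrain cell elongation. Their best known receptors are kinases of the FERONIA family, which bind the peptides together with small GPI-anchored proteins of the LORELEI family, and wall-bound leucine-rich repeat extensins bind some RALF peptides as well. AtRALF1 is known as a peptide of the root. In whole seedlings, fewer cells that express a gene and less RNA per cell cannot be told apart.

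The arrays had been scaled by the authors to 1 trimmed mean of signal, 125.0, and their medians lay at 48.5 and 42.0 in the 35S:AtRALF1-1 arrays and 50.5 and 46.1 in the control arrays. Markers of both organs were present. Of 6 green shoot markers 2 were measured, RCA (Rubisco activase) and LHCB4.1 (an antenna protein of photosystem II), with a summed signal of 16176 to 17480.5 in 35S:AtRALF1-1 and 15816 to 19987 in the control. Of 6 root markers 3 were measured, PYK10, EXPA7 and EXPA18, with a summed signal of 4406.5 to 5983 in 35S:AtRALF1-1 and 6307 to 7277 in the control. The root sum is mostly PYK10 (5714.6 and 4085 in 35S:AtRALF1-1, 7079 and 6100.5 in the control), with a log2 fold change of -0.44. The other 2 root markers stood higher in 35S:AtRALF1-1, EXPA7 at a mean of 121.0 against 84.7 in the control and EXPA18 at 173.8 against 117.7, with log2 fold changes of 0.48 and 0.51. None of the 5 markers passed the test between the groups, and their part in the results was not tested. No marker of seed storage (6) or of flowers (4) had its own named probe set.

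The putative AtRALF1 probe set had the largest log2 fold change on the arrays. Its signal was 9752 in the first and 10530.2 in the second repeat of 35S:AtRALF1-1, against 306.0 in the first and 389.8 in the second repeat of the control. The groups lay far apart compared with the repeats of each group. The means were 10141 ± 550.3 in 35S:AtRALF1-1 and 347.9 ± 59.3 in the control (SD, n = 2 each), a ratio of 29.1. Within the repeats the ratio was 31.9 in the first and 27.0 in the second. On the log2(signal + 16) scale, on which all tests were run and which understates changes of dim probe sets, the log2 fold change was 4.81 (standard error 0.25, 95% interval 4.15 to 5.47). The next largest over the whole array was 2.85. At least 2-fold higher within both repeats, on that scale, were 1 of the 6 members, this probe set, and 0.299% of all probe sets. It was singled out with its values known, so the count is a description.

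The rank of the putative AtRALF1 probe set within each array moved in the same way. Of 22746 probe sets it stood in place 13 in the first and 7 in the second 35S:AtRALF1-1 array, and in place 2638 in the first and 2100 in the second control array. As percentiles these are 99.95 and 99.97 in 35S:AtRALF1-1, against 88.4 and 90.8 in the control. Its signal in the 35S:AtRALF1-1 arrays approached the highest signals read there, 12529 and 13678. In the control it lay well above the array median. Ranks do not depend on how the arrays were scaled to each other.

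After adjustment over all probe sets, limma gave the putative AtRALF1 probe set a p of 0.305, although its unadjusted p was the smallest on the array. At an adjusted p under 0.05, limma called 0 probe sets higher (0% of those tested) and 0 lower (0%), and at an unadjusted p under 0.05 it called 458 higher (2.01%) and 522 lower (2.29%). The putative AtRALF1 probe set was the single one called with the repeat as a block (limma, adjusted p = 0.0489) and when testing was limited to the brightest 60% of probe sets (adjusted p = 0.0283). These p-values, too, are a description. With 2 arrays against 2, an exact two-sided permutation test gives 0.333, the smallest p it allows. The sources used here do not give where its probes lie along the transcript, so RNA of the transgene and of the resident gene cannot be told apart.

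**Figure D1:**
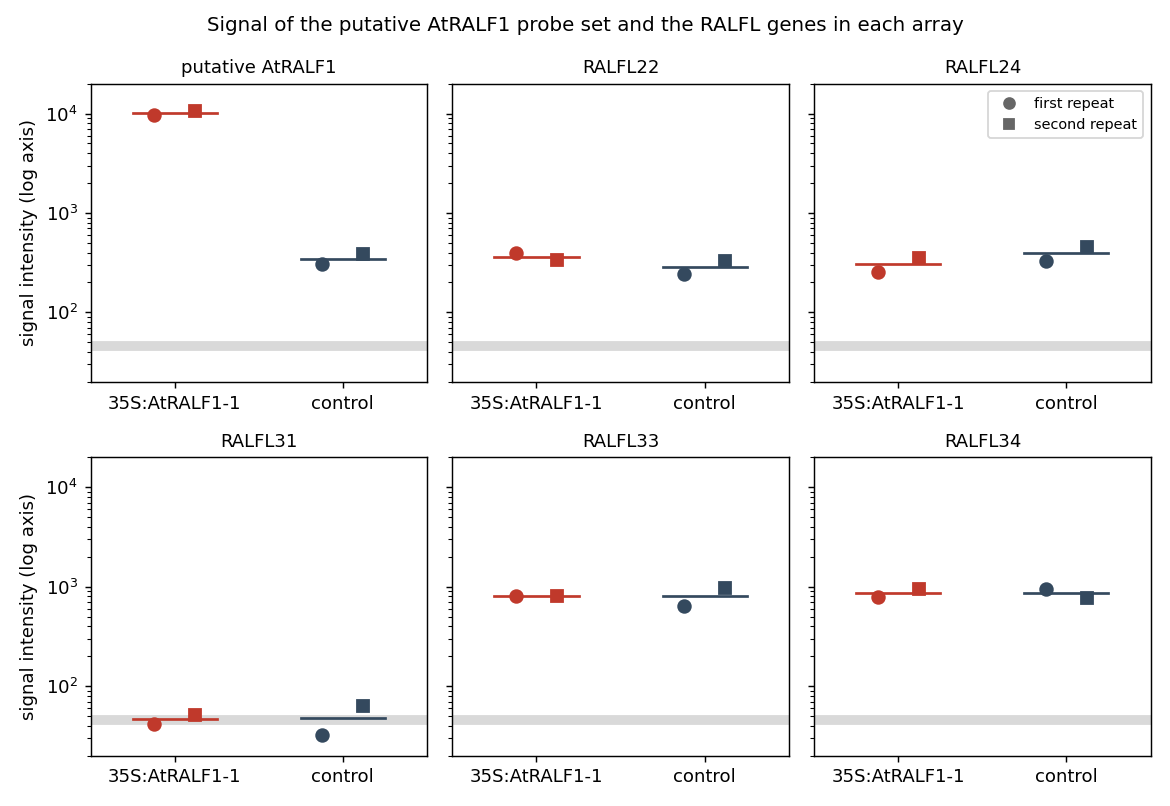
Signal intensity (log axis) of the putative AtRALF1 probe set and the 5 RALFL genes in each of the 4 arrays, with 35S:AtRALF1-1 on the left and control on the right of each panel. Circles are the first and squares the second repeat, short lines are group means, and the grey band spans the array medians (42.0 to 50.5). Only in the panel of the putative AtRALF1 probe set do the groups stand far apart, at means of 10141 and 347.9.

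None of the 5 named RALFL genes rose or fell past the threshold, and their log2 fold changes lay between -0.35 and 0.34. Their median was 0.0047 and 4 of 5 were positive, beside a median of -0.042 and 43.9% positive over all probe sets. The positive values of RALFL31, RALFL33 and RALFL34 were far smaller than their standard errors and came from opposite directions in the repeats. The widest bounds of their 95% intervals were -1.12 and 1.00, for RALFL24 and RALFL22, whereas the interval of the putative AtRALF1 probe set began at 4.15.

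RALFL22 (AT3G05490, chromosome 3) encodes a peptide known from root hairs, where it binds the leucine-rich repeat extensin LRX1, and it is among the family members closest in sequence to AtRALF1. Its signal was 394.5 in the first and 335.5 in the second repeat of 35S:AtRALF1-1, against 244.6 in the first and 329.8 in the second repeat of the control. Both 35S:AtRALF1-1 arrays lay above both control arrays, the second repeat by a narrow margin. Over all probe sets, 13.2% stood higher without overlap in this way and 18% stood lower, so 1 of 5 is close to that background. The means were 365.0 ± 41.7 in 35S:AtRALF1-1 and 287.2 ± 60.2 in the control (SD, n = 2 each). The ratio was 1.61 within the first repeat and 1.02 within the second. In limma the log2 fold change was 0.34 ± 0.25 (SE, adjusted p = 0.987), and its 95% interval corresponds to 0.801-fold to 2.00-fold. Without control replicate 1 the log2 fold change was 0.14.

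RALFL24 (AT3G23805, chromosome 3) encodes another member of the family. Its signal was 253.2 in the first and 354.8 in the second repeat of 35S:AtRALF1-1, against 328.2 in the first and 455.7 in the second repeat of the control. The groups overlapped, but within each repeat the 35S:AtRALF1-1 array was the lower one, by nearly the same ratio, 0.771 and 0.779. A lower signal within both repeats was found for 31.5% of all probe sets. The second repeat stood above the first by 1.40-fold in 35S:AtRALF1-1 and 1.39-fold in the control. The means were 304.0 ± 71.8 in 35S:AtRALF1-1 and 391.9 ± 90.2 in the control (SD, n = 2 each). In limma the log2 fold change was -0.35 ± 0.29 (SE, adjusted p = 0.987), with an interval from 0.461-fold to 1.33-fold. With the repeat as a block limma gave a standard error of 0.19 and an adjusted p of 0.730. Without control replicate 2 or without 35S:AtRALF1-1 replicate 1, the log2 fold change was -0.12.

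RALFL33 (AT4G15800, chromosome 4) is a close relative of AtRALF1 whose peptide, like that of RALF23, is known to act through FERONIA in immune signalling. Its signal was 808.9 in the first and 809.9 in the second repeat of 35S:AtRALF1-1, and 637.4 in the first and 960.4 in the second repeat of the control. The 35S:AtRALF1-1 values lay between those of the control. The means were 809.4 ± 0.707 in 35S:AtRALF1-1 and 798.9 ± 228.4 in the control (SD, n = 2 each), so the spread between repeats lay in the control arrays. The ratio was 1.27 within the first repeat and 0.843 within the second, and the log2 fold change was 0.047 ± 0.28 (SE; limma, adjusted p = 0.997), with an interval of 0.623-fold to 1.71-fold.

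RALFL34 (AT5G67070, chromosome 5) encodes a ligand of the receptor kinase THESEUS1 and is known for its part in the start of lateral roots. Its signal was 783.7 in the first and 948.8 in the second repeat of 35S:AtRALF1-1, and 956.2 in the first and 774.8 in the second repeat of the control. The groups covered nearly the same range, and the repeats went opposite ways in them. The means were 866.2 ± 116.7 in 35S:AtRALF1-1 and 865.5 ± 128.3 in the control (SD, n = 2 each). In limma the log2 fold change was 0.0026 ± 0.24 (SE, adjusted p = 1), with the narrowest interval of the 5, from 0.643-fold to 1.56-fold.

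RALFL31 (AT4G13950, chromosome 4) was the dim member. Its signal was 41.8 in the first and 50.9 in the second repeat of 35S:AtRALF1-1, and 32.2 in the first and 63.7 in the second repeat of the control. Both control values lay outside those of 35S:AtRALF1-1, 1 on each side. These signals straddle the array medians, and without detection calls a signal at this level cannot be told from background. The means were 46.4 ± 6.43 in 35S:AtRALF1-1 and 48.0 ± 22.3 in the control (SD, n = 2 each), and the log2 fold change was 0.0047 ± 0.36 (SE; limma, adjusted p = 1), with an interval of 0.521-fold to 1.93-fold.

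**Figure D2:**
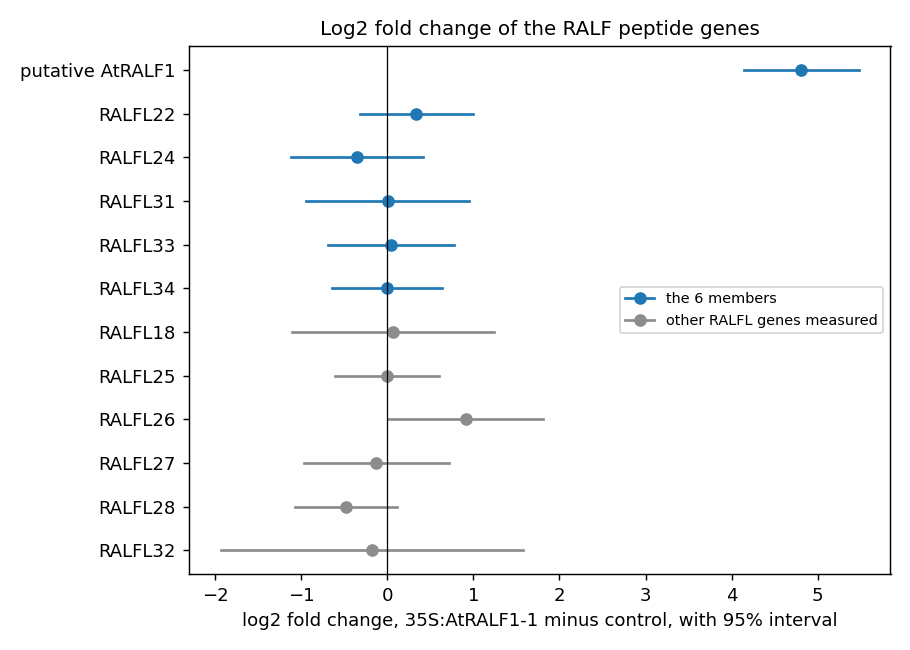
Log2 fold change of 35S:AtRALF1-1 minus control on the log2(signal + 16) scale, with the 95% interval from limma, for the putative AtRALF1 probe set and the 5 RALFL genes (blue) and for the 6 other RALFL genes measured (grey). The putative AtRALF1 probe set stands at 4.81, and the intervals of all RALFL genes but RALFL26, whose lower bound is 0.0047, include 0.

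RALFL34 held the percentiles 95.5 and 96.0 in the 35S:AtRALF1-1 arrays and 96.4 and 95.3 in the control arrays, in the order of the repeats. RALFL33 held 95.7 and 95.3 in 35S:AtRALF1-1 and 94.5 and 96.2 in the control. These neighbours could not be ordered, since each overlapped the other in every group. RALFL22 held 90.8 and 89.1 in 35S:AtRALF1-1 and 85.6 and 89.3 in the control, and RALFL24 85.6 and 89.6 in 35S:AtRALF1-1 and 89.2 and 92.1 in the control. These 2 genes were also not ordered beyond their spread. RALFL31 held 46.3 and 55.0 in 35S:AtRALF1-1 and 38.3 and 58.9 in the control, below all others in every array. Probe sets differ in how strongly they hybridize, so such a rank is a property of the probe set and not an amount of transcript. In the control, the putative AtRALF1 probe set (88.4 and 90.8) fell in the range of RALFL22 and RALFL24.

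**Figure D3:**
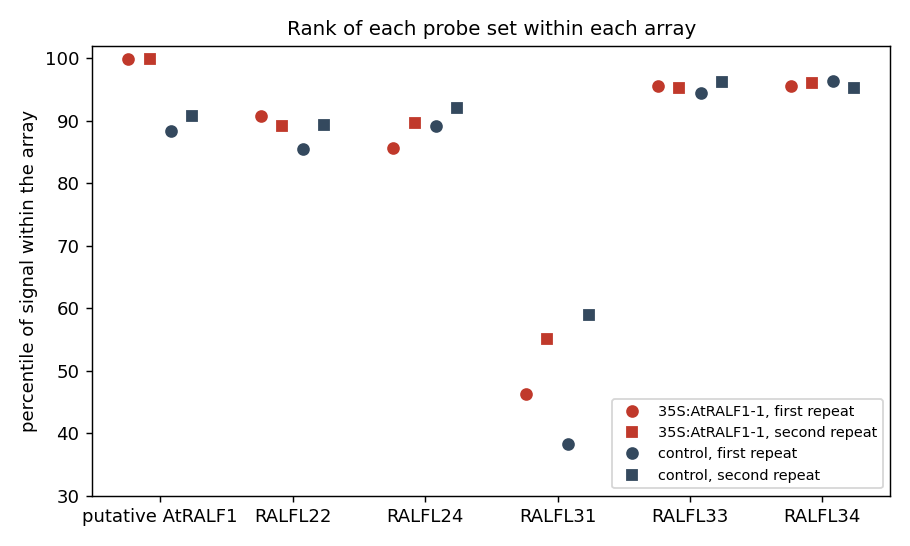
Percentile of the signal of the putative AtRALF1 probe set and the 5 RALFL genes among the 22746 probe sets of each array (vertical axis, cut off at its lower end), with the 35S:AtRALF1-1 arrays left of the control arrays for each gene. The putative AtRALF1 probe set stood at 99.95 and 99.97 in 35S:AtRALF1-1 and at 88.4 and 90.8 in the control, and RALFL31 lay near the middle of every array.

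The repeats of a group differed as well. The median absolute difference between the repeats over all probe sets was 0.36 on the log2(signal + 16) scale in 35S:AtRALF1-1 and 0.28 in the control. In 35S:AtRALF1-1, RALFL24 differed most between the repeats (0.46) and RALFL33 least (0.0017). In the control, RALFL31 (0.73) and RALFL33 (0.58) differed most. The putative AtRALF1 probe set differed by 0.11 in 35S:AtRALF1-1 and by 0.33 in the control. Of the 6 members, 3 (RALFL31, RALFL33 and RALFL34) had opposite directions of the group difference in the 2 repeats. Over all probe sets, 22.4% stood above the control within both repeats and 31.5% below it within both. The rest went opposite ways or tied, so such a split was common. In 4 of the 6 members, among them the putative AtRALF1 probe set, the second repeat lay above the first in both groups, which held for 26.7% of all probe sets. For RALFL33 in 35S:AtRALF1-1 this was a difference of only 1.0 signal unit.

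**Figure D4:**
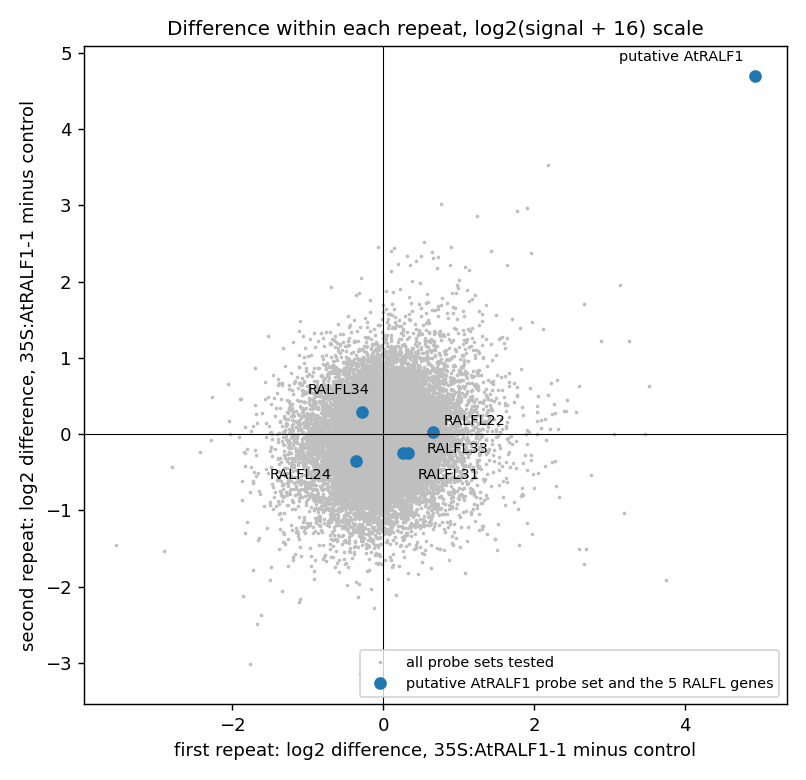
Log2 difference of 35S:AtRALF1-1 minus control within the first repeat (horizontal) and within the second repeat (vertical), on the log2(signal + 16) scale, for all 22746 probe sets (grey) and the 6 members (blue). The putative AtRALF1 probe set lies at 4.92 and 4.70, apart from every other probe set, and the 5 RALFL genes lie within the cloud.

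No probe set lay close to the putative AtRALF1 probe set over the 4 arrays. Likeness was measured as the Euclidean distance of log2(signal + 16) values, each minus the mean of the 2 control arrays. The 3 nearest have no gene name here, at distances of 3.01, 3.24 and 3.42 and with log2 fold changes of 2.85, 2.55 and 2.44. The next was AT2G18690, with signals of 320.4 and 725.8 in 35S:AtRALF1-1 and 82.5 and 81.4 in the control, at a distance of 3.56 and a log2 fold change of 2.35. It was followed by AT1G19380, at a distance of 3.81 and a log2 fold change of 2.17. AT1G19380 had signals of 541.2 and 451.6 in 35S:AtRALF1-1 and 126.6 and 74.3 in the control. The groups did not overlap in either gene, and 13.2% of all probe sets stood higher without overlap. Both genes were picked for likeness to a probe set high in 35S:AtRALF1-1, so this is a description. All 5 were far from the putative AtRALF1 probe set, whose own log2 fold change is nearly 2 units larger than the nearest of them. None passed the test (limma, adjusted p = 0.987 for each), and nothing is known from these arrays of what they share.

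In the remaining family and the machinery of RALF signalling, no gene measured passed the test, which called 0 probe sets on the whole array. With 2 arrays a group, this does not show that these genes were unchanged. The RefSeq gene table holds 34 RALF genes, of which 11 have a probe set named for them alone, the 5 described above and 6 others. The other 23, among them RALF23 and AtRALF1 itself, have no such probe set, and of these only AtRALF1 was followed, through its putative probe set. RALFL32 (AT4G14010) differed far more between repeats than between groups: its signal was 246.3 in the first and 701.1 in the second repeat of 35S:AtRALF1-1, and 297.5 in the first and 754.5 in the second repeat of the control. The second repeat was thus 2.85-fold and 2.54-fold above the first, while only 0.686% of all probe sets were at least 2-fold above in both groups. Between the groups its log2 fold change was -0.18 ± 0.67 (SE; limma, adjusted p = 0.997). No member differed that much between repeats. RALFL27 (AT3G29780) had signals of 43.2 and 70.9 in 35S:AtRALF1-1 and 56.8 and 68.1 in the control, a log2 fold change of -0.13. The other 4 lay below the array median on all 4 arrays.

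A list of 38 further genes of RALF signalling had 13 with a probe set of their own, of which 0 passed the test in either direction. Their median log2 fold change was 0.021 and 7 were above 0, beside a median of -0.042 and 43.9% above 0 over all probe sets. Of the 14 receptor kinases of the FERONIA family 9 were measured, and at an unadjusted p under 0.05 from limma 1 was higher and 0 lower, beside 2.01% higher and 2.29% lower over all probe sets. FER, the AtRALF1 receptor FERONIA, had signals of 884.8 and 451.5 in 35S:AtRALF1-1 and 603.0 and 326.1 in the control, giving a log2 fold change of 0.50 ± 0.46 (SE; limma, adjusted p = 0.987). It was higher in 35S:AtRALF1-1 within both repeats, by 1.47-fold and 1.38-fold, as were 22.4% of all probe sets. Its second repeat stood at 0.510 of the first in 35S:AtRALF1-1 and 0.541 in the control. With the repeat as a block limma gave FER a standard error of 0.18, an unadjusted p of 0.0409 and an adjusted p of 0.681. In that fit 734 probe sets were higher and 914 lower at an unadjusted p under 0.05. THE1, the receptor of RALFL34, had signals of 250.8 and 79.7 in 35S:AtRALF1-1 and 166.0 and 120.2 in the control, giving a log2 fold change of 0.021 ± 0.55 (SE).

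ANX1, ANX2, BUPS1 and BUPS2, receptors of the pollen tube, had signals of 2.0 to 31.3 in 35S:AtRALF1-1 and 1.0 to 26.5 in the control, below the median of every array. CVY1, a kinase of the same family that shapes cells, had a log2 fold change of -0.14. MDS3 (AT5G39020), a MEDOS receptor kinase, was the 1 receptor with an unadjusted p under 0.05 from limma without the repeat as a block. Its signal was 44.4 and 23.9 in 35S:AtRALF1-1 and 3.8 and 1.4 in the control, giving a log2 fold change of 1.40 ± 0.28 (SE; limma, adjusted p = 0.987), at levels that cannot be told from background. MDS4 (AT5G39030) had 13.4 and 10.2 in 35S:AtRALF1-1 and 40.2 and 17.6 in the control, a log2 fold change of -0.65. None of the 4 LORELEI-type co-receptors had a probe set named for it alone. A listed gene without one may still be measured by a probe set left unnamed here.

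Of the 5 leucine-rich repeat extensins 2 were measured, LRX4 and LRX5, with log2 fold changes of -0.088 and -0.20. S1P, the subtilase that cuts the RALF23 precursor, had signals of 82.9 and 91.6 in 35S:AtRALF1-1 and 91.6 and 88.0 in the control, giving a log2 fold change of -0.036 ± 0.24 (SE). Of 14 downstream components 1 had a probe set named for it alone, MRI (MARIS). This is a cytoplasmic kinase that acts below these receptors in pollen tubes and root hairs. MRI had signals of 56.0 and 61.6 in 35S:AtRALF1-1 and 36.9 and 43.9 in the control, which did not overlap. Its log2 fold change was 0.41 ± 0.27 (SE; limma, adjusted p = 0.987). These signals lay around the array medians, a level that cannot be told from background. Of the 13 genes, 2 stood higher without overlap and 2 lower, LRX4 among the latter, beside 13.2% and 18% of all probe sets.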

How the data were processed

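Whole seedlings were measured on 4 arrays, 1 per sample. The deposited intensity values are linear signals, 1 for each probe set. The authors had scaled every array to a common mean, trimmed by 2% at each end. The sources used here give neither the software nor any background correction. Of 22810 probe sets, 64 controls were left out. Signals were floored at 1, raised by 16 and put on the log2 scale. The comparison used two-sided moderated tests in limma 3.58.1 under R 4.3.3, with prior variances that follow intensity (2.66 prior and 2 residual degrees of freedom). Adjusted p-values were computed by Benjamini-Hochberg over all probe sets tested in a fit, with a threshold of 0.05. Among the brightest 60% these were only the probe sets kept. P-values called unadjusted, and that of the permutation test, were not adjusted. The procedure was also run on simulated data with errors independent between arrays, which does not show how it fares on these arrays. The number of arrays limits the precision. Single genes were named for 13513 probe sets (13508 matched to a TAIR10.1 locus), several for 503 and none for 8730. A gene with several probe sets was represented by that with the highest mean signal. Genes named are the 6 members, pathway genes with a probe set of their own, and the 5 probe sets most like the putative AtRALF1 probe set. Members and lists were chosen with earlier results of these data known. A planned description of protein features was not run, as no sequence was used here. Alternatives were cyclic loess or quantile normalization, an offset of 64 or 1, no variance trend, the repeat as a block, each array left out, only the brightest 60% of probe sets, and ranks among named probe sets.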

Additional observations from a re-analysis of the deposited data

How the results depend on the processing

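The log2 fold change of the putative AtRALF1 probe set kept its direction in all 11 alternatives, between 4.64 and 4.98, and its adjusted p from limma, 0.305 as reported, lay between 0.0283 and 1. It passed the threshold with the replicate block (log2 fold change 4.81, adjusted p = 0.0489) and among the brightest 60% of probe sets (4.81, adjusted p = 0.0283), the 2 alternatives in which the number of called probe sets was 1 and not 0. Fewer probe sets were tested among the brightest. What the repeat numbers stand for is not in the labels. Arrays with the same number deviated together from their group means (correlation 0.39 across probe sets), but 2 numbers cannot settle whether they pair the arrays. The block changed no other call. With any 1 array left out, 0 probe sets were called, and the log2 fold change of the putative AtRALF1 probe set ranged from 4.64 to 4.98. That of RALFL22 ranged from 0.14 to 0.54, that of RALFL24 from -0.58 to -0.12, that of RALFL31 from -0.36 to 0.37, that of RALFL33 from -0.24 to 0.34 and that of RALFL34 from -0.15 to 0.15. Such a fit assumes the lone array to vary as the pair does. The sign also turned for RALFL34 with quantile normalization (-0.038) and for RALFL31 with an offset of 64 (-0.0076); the cause was not tested. No RALF pathway gene was called in any alternative. Of these 24 genes, the RALFL genes included, only 14 were tested among the brightest 60% of probe sets. Ranked only among probe sets with 1 named gene and the putative AtRALF1 probe set, mean percentiles in 35S:AtRALF1-1 and in control were 100 and 92.6 for the putative AtRALF1 probe set, 92.7 and 90.8 for RALFL22, 90.8 and 93.4 for RALFL24, 97.2 and 97.2 for RALFL33, and 97.4 and 97.5 for RALFL34, each higher than over all probe sets; those of RALFL31 moved by less than the spread between repeats.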

Other observations

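The 4 RALF genes below the array median on every array were RALFL18, RALFL25, RALFL26 and RALFL28. RALFL26 (AT3G25170) had signals of 28.1 and 37.9 in 35S:AtRALF1-1 and 4.0 and 17.7 in the control, which did not overlap. Of all probe sets, 13.2% stood higher in this way. In limma the log2 fold change of RALFL26 was 0.91 ± 0.34 (SE, adjusted p = 0.987), with a 95% interval of 0.0047 to 1.81, and it was the 1 RALF gene of 11 with an unadjusted p under 0.05, beside 2.01% of all probe sets higher and 2.29% lower. RALFL25 (AT3G25165), the next protein-coding gene on chromosome 3, had 6.3 and 14.6 in 35S:AtRALF1-1 and 8.4 and 12 in the control, a log2 fold change of -0.00087. RALFL28 (AT4G11510) had 4.6 and 1.0 in 35S:AtRALF1-1 and 6.0 and 14.8 in the control, a log2 fold change of -0.48 ± 0.23 (SE). At these levels a signal cannot be told from background.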
